A study of Mus musculus with 9 samples.

Results

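The Wnt ligands, their Frizzled receptors and LRP co-receptors, the R-spondins, the secreted inhibitors of the Sfrp and Dkk families, and the scaffold proteins Axin1 and Axin2 were examined in the fetal mouse brain after alcohol exposure. Members were taken by gene symbol (Wnt, Fzd, Sfrp and Dkk followed by a digit, Rspo1 to Rspo4, Axin1, Axin2, Lrp5 and Lrp6). This gave 45 of the 27095 loci in the deposited table: 19 ligands, 10 Frizzled receptors, 2 co-receptors, 4 R-spondins, 8 secreted inhibitors and 2 Axins. They lie on 16 chromosomes, and 0 of them lie on X or Y.

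RNA was sequenced from 9 wild type fetuses of strain C57BL/6 (C57BL/6J in the methods) taken on gestational day 17, in 3 groups of 3 animals. EtOH at 2.9 g/kg was injected into the peritoneum of the mothers on gestational day 7, and the mothers of control fetuses were given vehicle. Exposed fetuses that showed ocular and craniofacial defects made up the affected group, and exposed fetuses free of them the unaffected group. The labels call the tissue fetal brain, whereas the methods of the study speak of cortex, and litter and sex of each sequenced fetus were not given in the sources used here. The values were 1 FPKM per locus and group (fragments scaled by exon length and sequencing depth), computed upstream from all 3 animals of a group. No value per animal was analysed here. No value therefore carries an error between animals, no test was run here, and every difference is a description of these 3 group values. The number of fragments per library was unknown, and no counting interval was computed.

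Wnt proteins are lipid-modified secreted ligands that bind Frizzled receptors. When LRP5 or LRP6 is bound at the same time, the complex holding Axin is inactivated, beta-catenin accumulates, and genes such as Axin2 are transcribed with TCF and LEF factors. R-spondins amplify the signal by keeping Frizzled receptors at the membrane, Sfrp proteins bind the ligands, and Dkk1, Dkk2 and Dkk4 block the LRP co-receptors. In the developing cortex the pathway is known for patterning along the medial border, for the balance between progenitor division and neuron formation, and for the growth of brain vessels.

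The marker genes of the tissue were read first. Of 8 genes that mark the midbrain and hindbrain, 0 reached a mean FPKM of 1, and their summed FPKM was 0.0845 in control samples, 0.0734 in unaffected and 0.0583 in affected samples. Tbr1, a transcription factor of cortical projection neurons, stood at an FPKM of 75.7 in control samples, 62.1 in unaffected and 98.3 in affected samples. Ttr, which defines the choroid plexus epithelium, stood at 970, 1291 and 1077 in the same order, so that the samples held choroid plexus RNA beside cortical RNA. The defining markers of the caudal brain were thus near 0 in all groups, and those of the cortex were present. Other regions were seen too: in the same order, 8 markers of the ventral telencephalon summed to 180, 212 and 194 FPKM. The 5 thalamic markers summed to 11.9, 9.83 and 10.6.

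A small number of members carried most of the signal. Over the 3 groups, 23 of the 45 members had a mean FPKM of at least 1, among them 5 of 19 ligands, 7 of 10 Frizzled receptors, both co-receptors, 3 of 4 R-spondins, 4 of 8 secreted inhibitors and both Axins. Wnt7b alone, a ligand of cortical neurons that also acts on brain vessels, made up 64.4% of the summed FPKM of the ligands in control samples, 62.5% in unaffected samples and 69.9% in affected samples. Wnt7a, its close relative, made up a further 18.6% in control samples. In control samples the highest FPKM were those of Wnt7b at 45.4, of the inhibitor Sfrp1 at 36.5 and of Axin1 at 15.2. Since the tissue was analysed in bulk, fewer cells of a type and less RNA per cell cannot be told apart in these or any later values.

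**Figure D1:**
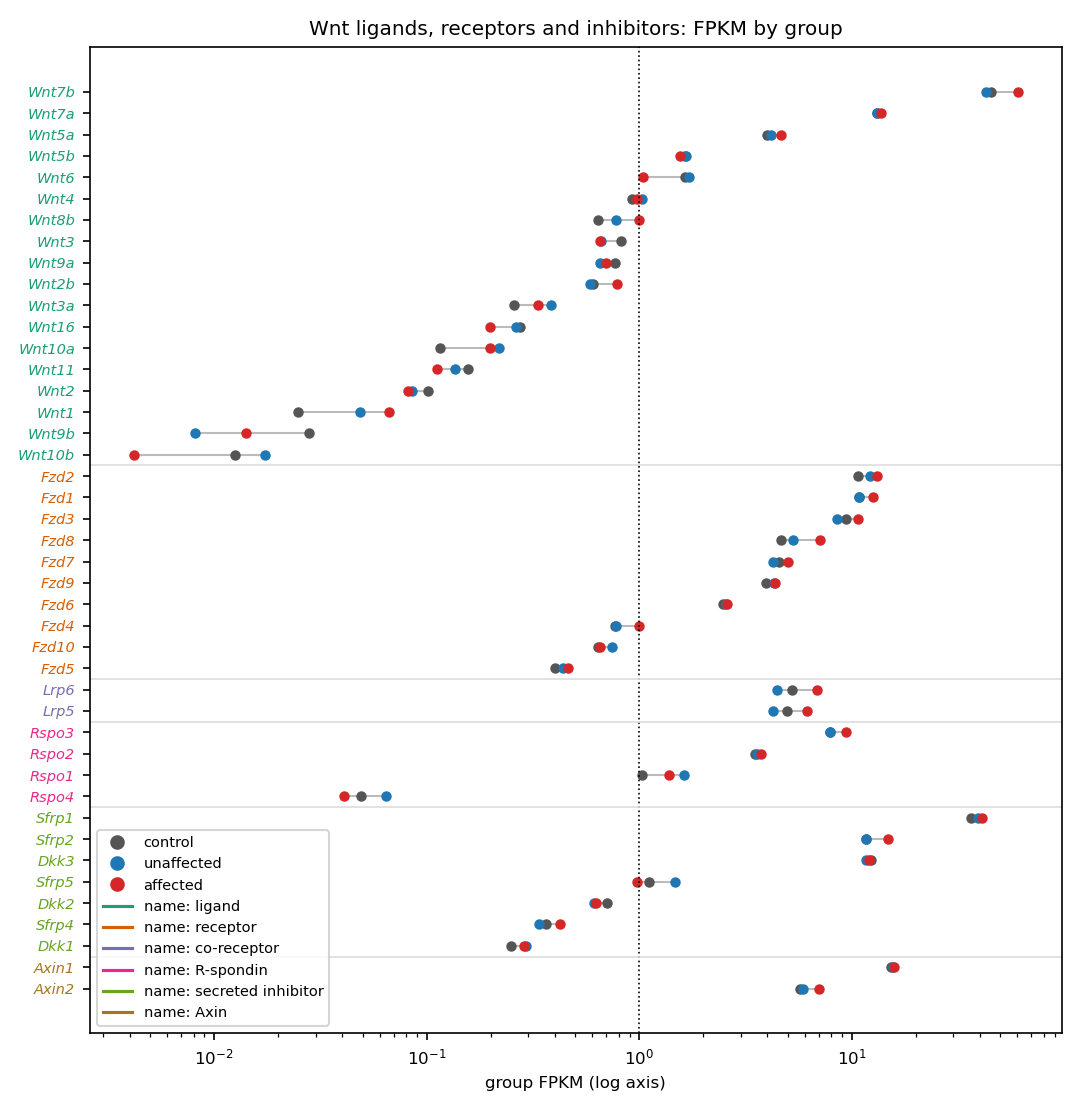
FPKM of each member in the control, unaffected and affected groups (1 value per group, log axis), with members ordered by role and by mean FPKM and the dotted line at an FPKM of 1. Wnt8a was listed at 0 in all groups and Dkk4 in the exposed groups, so they are not drawn. Wnt7b and Sfrp1 lie farthest to the right, and most ligands lie to the left of the line.

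The 22 members below a mean FPKM of 1 included 14 ligands, whose means ran from 0 for Wnt8a, listed at 0 in all groups, to 0.977 for Wnt4. Wnt3a and Wnt2b, ligands of the cortical hem, had an FPKM of 0.257 and 0.604 in control samples, 0.383 and 0.585 in unaffected ones, and 0.333 and 0.784 in affected ones. Wnt8b, a ligand of the medial cortical wall, stood at 0.641, 0.774 and 1.00 in control, unaffected and affected samples. Of the other members below 1, the receptors Fzd4, Fzd10 and Fzd5 had means from 0.433 to 0.848, and Rspo4 had a mean of 0.0514. The inhibitors Dkk2, Sfrp4, Dkk1 and Dkk4 had means from 0.0124 to 0.648. A total of 7 members had a mean below 0.1 FPKM, Wnt8a included, and no fold is given for any member below a mean of 1.

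Several Wnt genes lie side by side in the mouse genome (mm10), and the neighbours differed in level. Wnt6 and Wnt10a lie 6.70 kb apart on chromosome 1, with mean FPKM of 1.46 and 0.178. Wnt3a and Wnt9a lie 16.2 kb apart on chromosome 11, with mean FPKM of 0.324 and 0.707. On the same chromosome Wnt9b and Wnt3 lie 24.4 kb apart, with mean FPKM of 0.0167 and 0.713. Wnt10b and Wnt1, 11.7 kb apart on chromosome 15, were both near 0, with mean FPKM of 0.0114 and 0.0465.

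The sequences just upstream of the start site were read for the members found in a RefSeq table of mouse promoters (GRCm38.p6, the build also called mm10). The table gave 31 start sites for 28 of the 45 members, and the 250 bases before each start were searched on both strands for CTTTG followed by 2 letters that are each A or T, the core letters to which TCF and LEF factors are known to bind. The letters were found before 4 of the 31 member start sites (12.9%) and before 4874 of all 32851 start sites in the table (14.8%). The members with a match were Fzd7, Dkk1, 1 start site of Wnt5b and 1 of Wnt11. The median GC content of the member windows was 69.2%, against 52.4% over all start sites. The windows of Wnt6, Sfrp2 and Rspo1, 3 of the members that differ between groups in the comparisons that follow, are printed to show the sequence upstream of a ligand, an inhibitor and an agonist, and those of Axin2 and Dkk1 because both genes are known to respond to the pathway. Capitals mark the searched letters. The Wnt6 window lies at chr1:74771642-74771891, plus strand, that of Sfrp2 at chr3:83766071-83766320, plus strand and that of Rspo1 at chr4:124986180-124986429, plus strand. The Axin2 window lies at chr11:108920099-108920348, plus strand and that of Dkk1 at chr19:30549497-30549746, minus strand. Each is written 5′ to 3′ along its gene and ends at the base before the start site.
Wnt6: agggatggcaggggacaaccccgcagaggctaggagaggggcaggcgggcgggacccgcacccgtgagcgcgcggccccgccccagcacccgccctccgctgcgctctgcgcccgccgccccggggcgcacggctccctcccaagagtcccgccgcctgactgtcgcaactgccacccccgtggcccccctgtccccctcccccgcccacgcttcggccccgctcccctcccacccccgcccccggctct
Sfrp2: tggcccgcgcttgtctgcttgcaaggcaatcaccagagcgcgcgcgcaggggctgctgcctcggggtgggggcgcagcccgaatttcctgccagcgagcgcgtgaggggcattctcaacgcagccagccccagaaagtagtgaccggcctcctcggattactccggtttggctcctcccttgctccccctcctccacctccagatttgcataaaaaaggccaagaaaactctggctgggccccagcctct
Rspo1: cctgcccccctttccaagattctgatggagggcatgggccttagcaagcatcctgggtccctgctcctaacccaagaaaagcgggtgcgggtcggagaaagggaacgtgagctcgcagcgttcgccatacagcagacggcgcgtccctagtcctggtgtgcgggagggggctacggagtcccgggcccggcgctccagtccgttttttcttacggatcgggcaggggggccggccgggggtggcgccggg
Axin2: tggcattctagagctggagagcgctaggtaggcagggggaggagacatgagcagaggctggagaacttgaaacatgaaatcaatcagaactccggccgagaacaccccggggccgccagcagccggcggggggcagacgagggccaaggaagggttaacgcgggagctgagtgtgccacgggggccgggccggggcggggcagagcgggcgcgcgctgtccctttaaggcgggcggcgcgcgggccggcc
Dkk1: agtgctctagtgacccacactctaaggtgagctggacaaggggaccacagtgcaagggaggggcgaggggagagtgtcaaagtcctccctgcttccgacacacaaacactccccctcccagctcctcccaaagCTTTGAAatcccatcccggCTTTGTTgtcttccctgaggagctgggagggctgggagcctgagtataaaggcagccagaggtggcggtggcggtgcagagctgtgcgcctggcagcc

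The Dkk1 window held the letters at 2 places, which begin 117 and 98 bases before the start site, and 1.43% of all start sites in the table had 2 or more such places. Dkk1 had an FPKM of 0.248 in control samples, 0.295 in unaffected and 0.288 in affected samples. The windows of Axin2, Wnt6, Sfrp2 and Rspo1 did not hold these letters, which says only that they are not in these 250 bases.

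For the comparisons between groups, a difference is the log2 ratio of the 2 group values after 0.1 FPKM was added to each, and a locus counts as past the threshold where the difference is at least 0.3 in size, a ratio of 1.23. Counts are given over the 23 members at a mean FPKM of 1 or more, beside the share of all 12642 named loci that meet the same mean. The 3 comparisons share groups, so that each control or exposed value enters 2 of them, and their values are set side by side.

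Between unaffected and control samples the family differed little, and what differed were a pathway agonist and an inhibitor of low level. Of the 23 members, 2 were higher in the unaffected group by at least 0.3, Rspo1 and Sfrp5, where the share over all named loci was 2.70%. In the other direction 0 were lower, where the share over all loci was 2.74%. The median difference of the members was 0.03, against 0.01 over all loci. The members with the highest levels differed by less than the threshold, with Wnt7b at -0.09, Sfrp1 at 0.11 and Axin1 at 0.04.

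In the affected samples more of the family lay above control. Of the 23 members, 6 (26.1%) were higher by at least 0.3, where the share over all named loci was 10.3%: the ligand Wnt7b, the receptor Fzd8, the co-receptors Lrp6 and Lrp5, the agonist Rspo1 and the inhibitor Sfrp2. A single member, the ligand Wnt6, was lower (4.35%), where the share over all loci was 11.0%. In all, 19 of the 23 members lay above 0 (82.6%), against 51.9% of all loci, and the median difference was 0.19 against 0.01.

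Against the unaffected samples, which had the same exposure, 6 of the 23 members (26.1%) were also higher in the affected group, and here the share over all loci was 18.4%. They were Wnt7b, Fzd3, Fzd8, Lrp6, Lrp5 and Sfrp2. Wnt6 and Sfrp5 were lower (8.70%), where the share over all loci was 19.4%. Again 19 of 23 members lay above 0, against 49.1% of all loci, with a median difference of 0.10 against -0.01.

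**Figure D2:**
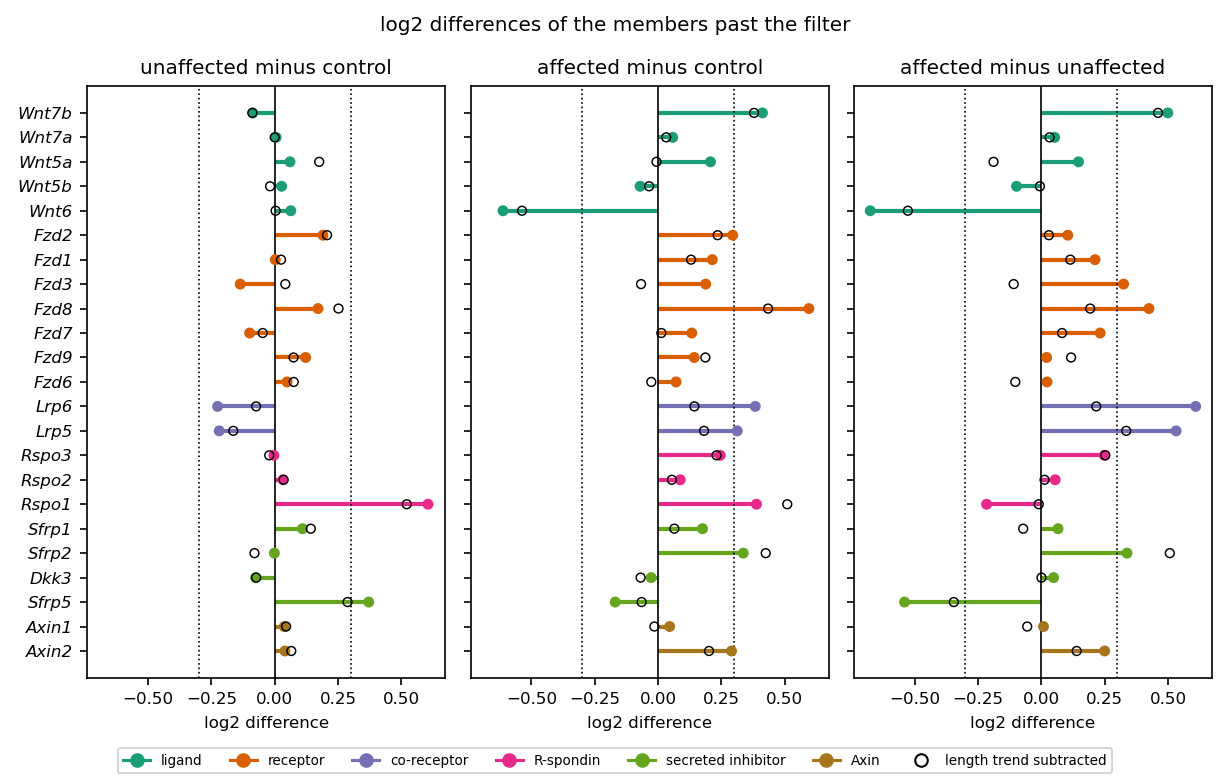
log2 difference of each of the 23 members at a mean FPKM of 1 or more, in the 3 comparisons, with dotted lines at the threshold of 0.3 in either direction. Filled points are the differences as reported and open circles the same after subtraction of the trend with transcript length. In the middle panel Wnt7b, Fzd8, Lrp6, Lrp5, Rspo1 and Sfrp2 lie past the right line and Wnt6 past the left line.

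The differences of all loci depended on transcript length, and this touches the members because many of them are long. By the longest coding transcript, or the longest of any kind where none was coding, the loci were split into 3 classes of nearly equal number. Those in the longest class were higher in the affected than in the control group by the threshold in 22.4% of cases, and those in the shortest class in 3.28%. Against the unaffected group the shares were 41.8% and 3.23%. Of the 23 members, 10 fell in the longest class (4147 nt or more), 7 in the middle class and 6 in the shortest class. The members were therefore also read after the running median of loci of similar length had been subtracted. Their median difference was then 0.06 between affected and control and 0.03 between affected and unaffected. After subtraction 4 members were higher in the affected than in the control group, Wnt7b, Fzd8, Rspo1 and Sfrp2, against 5.05% of all loci, and 1 was lower, Wnt6, against 7.35%. Between affected and unaffected 3 were then higher, Wnt7b, Lrp5 and Sfrp2, against 10.3% of all loci, and 2 lower, Wnt6 and Sfrp5, against 11.1%. What made the differences follow transcript length was not tested.

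**Figure D3:**
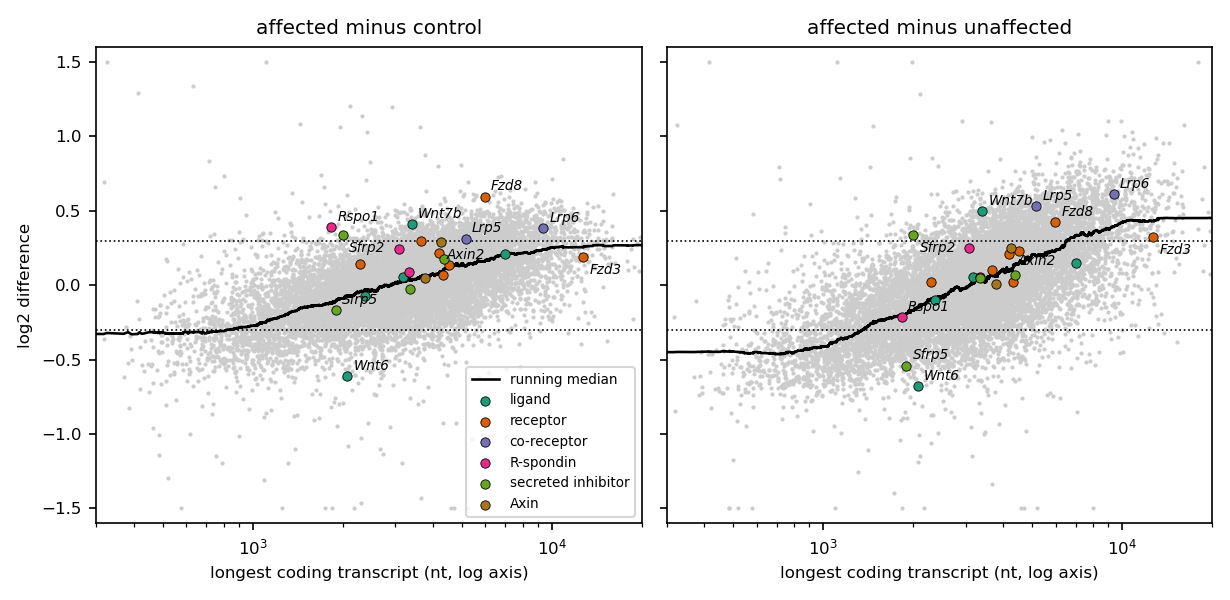
log2 difference of 11701 loci with a mean FPKM of at least 1 and a known transcript length (grey) and of the 23 members (coloured by role) against the length of the longest coding transcript in nucleotides, log axis. Loci with no coding transcript are placed by their longest transcript of any kind. The black line is the running median over loci ordered by length, dotted lines mark 0.3 in either direction, and loci beyond 1.5 are drawn at 1.5. Lrp6 and Fzd3 lie in the range where the running median is itself above 0.2, whereas Sfrp2 and Rspo1 lie where it is below 0 in the left panel.

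Among the ligands, Wnt7b had an FPKM of 45.4 in control samples, 42.7 in unaffected and 60.4 in affected samples. The affected value was the high one, and the control and unaffected values lay close together. Wnt7b (chr15:85535437-85593708) differed by 0.41 between affected and control, a ratio of 1.33, and by 0.50 between affected and unaffected, a ratio of 1.41. After subtraction of the length trend the differences were 0.38 and 0.46. With the median transcript length in place of the longest, an alternative chosen after seeing the data, they were 0.28, short of the threshold, and 0.34. Wnt7a, by contrast, stood at 13.1, 13.2 and 13.7 FPKM, and its difference between affected and control was 0.06.

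Wnt6, a ligand of epithelia, was the member with the largest difference in either affected comparison. Its FPKM was 1.64 in control samples, 1.72 in unaffected and 1.04 in affected samples, so the affected group alone was low. The gene (chr1:74771892-74785319) differed by -0.61 between affected and control, a ratio of 0.654, and by -0.68 between affected and unaffected, a ratio of 0.626. Subtracting the length trend gave -0.54 and -0.53. A pseudocount of 1 gave -0.37 and -0.42, smaller in size than Fzd8 at 0.516 in the first comparison and Lrp6 at 0.525 in the second. An equal total FPKM gave -0.64 and -0.39, the second smaller in size than Lrp6 at 0.91. The rank of Wnt6 thus depended on the setting, though its values stayed past the threshold. The Wnt6 upstream window is the first of those printed above.

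Wnt5a and Wnt5b are ligands best known for signalling that does not pass through beta-catenin. Wnt5a had an FPKM of 3.99 in control samples, 4.16 in unaffected and 4.62 in affected samples, and its difference of 0.21 between affected and control became -0.01 once the length trend was subtracted, or 0.27 by the median transcript length. Wnt5b (chr6:119432531-119544347) stood at 1.63, 1.67 and 1.55 FPKM. Its differences were 0.03 for unaffected against control, -0.07 for affected against control and -0.10 for affected against unaffected, none of which reached the threshold.

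Of the 7 Frizzled receptors that met the mean FPKM of 1, 1 was higher by the threshold between affected and control, against 10.3% of all loci. Their differences ran from 0.07 to 0.60, with a median of 0.19. After subtraction of the length trend the median was 0.13, and Fzd3 and Fzd6 lay below 0, at -0.07 and -0.03. Fzd2, Fzd1 and Fzd3 had the highest levels of the receptors.

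Fzd8 stood at an FPKM of 4.67 in control samples, 5.27 in unaffected and 7.10 in affected samples, an order in which the unaffected value lay between the others. It differed by 0.60 between affected and control, the largest positive difference of any member in that comparison, and by 0.42 between affected and unaffected. With the length trend subtracted the values were 0.43 and 0.19, so only the first stayed past the threshold.

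Fzd2 (chr11:102604431-102608058) had 10.7, 12.2 and 13.2 FPKM in control, unaffected and affected samples, with a difference of 0.29 between affected and control that lay just short of the threshold. Fzd1 had 10.8, 10.9 and 12.6 FPKM and a difference of 0.21. Fzd3, a receptor of planar polarity that guides axon tracts, had 9.34, 8.49 and 10.7 FPKM (chr14:65192441-65262463). Its difference of 0.32 between affected and unaffected became -0.11 with the length trend subtracted, and its longest coding transcript of 12734 nt is the longest of the 23 members.

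The remaining receptors differed by less. Fzd7 stood at 4.55, 4.25 and 5.004 FPKM in control, unaffected and affected samples, and Fzd9 at 3.94, 4.30 and 4.36. Fzd6 stood at 2.47, 2.56 and 2.60. Their differences between affected and control were 0.13, 0.14 and 0.07.

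Lrp5 and Lrp6, the co-receptors needed for signalling through beta-catenin, had the same order of groups, with the unaffected value the lowest and the affected value the highest. Lrp6 (chr6:134446478-134566921) had an FPKM of 5.22 in control samples, 4.45 in unaffected and 6.85 in affected samples. Its differences were -0.23 for unaffected against control, 0.38 for affected against control and 0.61 for affected against unaffected, a ratio of 1.53. Its longest coding transcript has 9368 nt, and with the length trend subtracted the last pair of values was 0.14 and 0.22, short of the threshold. By the median transcript length instead they were 0.35 and 0.59, past it, so the call depended on which length was used.

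Lrp5 (chr19:3584825-3686564) had an FPKM of 4.96, 4.24 and 6.18 in control, unaffected and affected samples. Its differences were -0.22, 0.31 and 0.53 in the same order of comparisons. With the length trend subtracted the last pair was 0.18 and 0.33, so that only the comparison with unaffected samples stayed past the threshold.

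Of the R-spondins, Rspo1 passed the threshold against control. Rspo1 (chr4:124986430-125009099) had an FPKM of 1.03 in control samples, 1.62 in unaffected and 1.38 in affected samples. Control was the low group, and the difference was 0.61 for unaffected against control, a ratio of 1.52, and 0.39 for affected against control, a ratio of 1.31. The difference between affected and unaffected was -0.22. The differences from control became 0.52 and 0.51 once the length trend was subtracted, and that between the exposed groups became -0.01. Scaling to an equal total FPKM took the difference between unaffected and control to 0.29, and a pseudocount of 1 that between affected and control to 0.23, both short of the threshold.

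Rspo3, the R-spondin with the highest level, had 7.93, 7.91 and 9.41 FPKM in control, unaffected and affected samples, a difference of 0.25 from either group to the affected one. Rspo2 had 3.51, 3.60 and 3.74 FPKM. Both stayed below the threshold in all comparisons.

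The secreted inhibitors did not share a direction. Sfrp1, by far the highest of them, had an FPKM of 36.5 in control samples, 39.3 in unaffected and 41.2 in affected samples, and a difference of 0.18 between affected and control. Dkk3, a Dkk relative that is not known to bind LRP co-receptors, had 12.2, 11.6 and 12.02 FPKM. Neither passed the threshold in any comparison.

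Sfrp2 (chr3:83766321-83774314) had an FPKM of 11.7 in control samples, 11.7 in unaffected and 14.8 in affected samples, so that the affected group stood apart from a pair of near equal values. Its difference was 0.34 against either group. With the length trend subtracted the differences were 0.43 and 0.51, since its longest coding transcript of 2003 nt is short and loci of that length tended to be lower in the affected group. Sfrp5 (chr19:42197971-42202252) had 1.11, 1.47 and 0.978 FPKM in control, unaffected and affected samples, with the unaffected group the high one. It differed by 0.37 between unaffected and control and by -0.54 between affected and unaffected. The first value became 0.29, short of the threshold, and the second -0.35 with the length trend subtracted. By the median transcript length instead they were 0.36 and -0.54. Scaling to an equal total FPKM took them to 0.06 and -0.26, and a pseudocount of 1 took the first to 0.22, all short of the threshold.

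Axin2, the target most often used to read out signalling through beta-catenin, lay just short of the threshold. The gene (chr11:108920349-108950781) had an FPKM of 5.71 in control samples, 5.87 in unaffected and 7.0 in affected samples. Its difference was 0.29 between affected and control and 0.25 between affected and unaffected, and 0.20 and 0.14 with the length trend subtracted. By the median transcript length instead they were 0.37 and 0.39, past the threshold, so this call too depended on which length was used. Axin1, its constitutive relative, had 15.2, 15.6 and 15.7 FPKM and a difference of 0.05 between affected and control. At the threshold itself, Lrp5 at 0.31 lay just inside and Fzd2 and Axin2 at 0.29 just outside.

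The rest of the pathway was read from lists of 71 further genes, of which 69 had a locus of their own in the table and 59 met the mean FPKM of 1. Gsk3a and Ccnd1 lie in loci that the table joins with another gene and were not used here. Between affected and control 17 of the 59 were higher and 3 lower, against shares of 10.3% and 11.0% over all loci, and the median difference was 0.18, or 0.11 with the length trend subtracted. Between affected and unaffected 22 were higher and 1 lower, against shares of 18.4% and 19.4%, with a median of 0.20, or 0.12 with the length trend subtracted. Between unaffected and control 2 were higher and 2 lower, against shares of 2.70% and 2.74%, with a median of -0.06. The lists differed between affected and control. Of 16 cytoplasmic genes 4 were higher and 0 lower, and of 4 secretion genes 1 was higher and 0 lower, against 10.3% and 11.0%. Of 8 other inhibitors 2 were higher and 2 lower, and of 7 other receptors and co-receptors 0 passed the threshold. With the length trend subtracted the medians of these lists were 0.05, 0.18, 0.01 and -0.004.

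The largest positive differences of single pathway genes between affected and control were in the planar polarity genes Celsr1 and Celsr2. Of the 9 planar polarity genes that met the mean, 3 were higher in the affected than in the control group, against 10.3% of all loci. Against the unaffected group 6 were higher, where the share was 18.4% of all loci and 41.8% of the longest class. Their median differences of 0.24 and 0.44 became 0.13 and 0.14 with the length trend subtracted. Celsr1, a cadherin of planar polarity, had an FPKM of 4.33 in control samples, 3.95 in unaffected and 7.89 in affected samples, and a difference of 0.85 between affected and control. Celsr2 had 10.7, 8.31 and 15.9 FPKM and a difference of 0.57. Their longest coding transcripts have 10879 and 10598 nt.

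Of the 12 nuclear factors 6 were higher and 1 lower between affected and control, against 10.3% and 11.0% of all loci, and their median of 0.26 became 0.19 with the length trend subtracted. The lower one was Tcf7l2, a TCF factor that is also abundant in the thalamus, with an FPKM of 4.18 in control samples, 2.29 in unaffected and 2.39 in affected samples. Control was the high group, and the difference was -0.78 between affected and control and 0.06 between the exposed groups. Gbx2, another thalamic marker, had 1.02, 1.23 and 0.659 FPKM, Lhx9 had 3.72, 3.30 and 3.70 FPKM, and Rora had 0.538, 0.440 and 0.432 FPKM. Control was near equal to the affected group in Lhx9, highest in Rora and between the exposed groups in Gbx2. The means of Gbx2 and Rora lay below 1. Lef1, a nuclear factor also on the thalamic list, had 2.47, 2.57 and 3.42 FPKM, with the affected group highest.

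Frzb, a secreted inhibitor of the Sfrp family also called Sfrp3, had the largest difference of all the pathway genes. Its FPKM was 3.50 in control samples, 3.38 in unaffected and 1.47 in affected samples, and it differed by -1.20 between affected and control and by -1.15 between affected and unaffected. Dkkl1, a relative of the Dkk inhibitors, had 1.39, 1.22 and 1.01 FPKM and a difference of -0.42 between affected and control. Sp5, a target of beta-catenin signalling, had 0.824, 1.15 and 1.20 FPKM, a difference of 0.49 between affected and control and of 0.05 between the exposed groups. Its mean of 1.06 lay close to the filter, which the control value alone did not reach. Of the 7 widely used targets other than Axin2 that met the mean, 2 were higher and 0 lower between affected and control, Sp5 and Lef1. The shares over all loci were 10.3% and 11.0%, and the median of the 7 targets, 0.10, became 0.01 with the length trend subtracted.

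**Figure D4:**
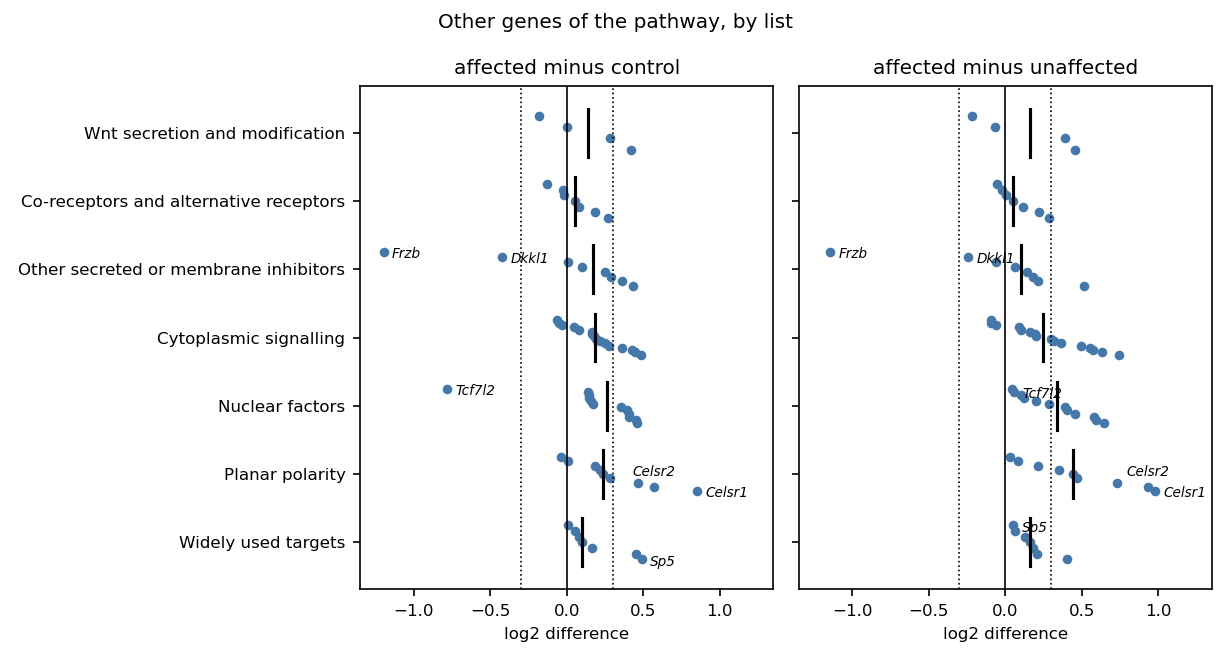
log2 difference between affected and control (left) and between affected and unaffected (right) of the 59 further pathway genes with a mean FPKM of at least 1, by list. Each point is 1 gene, black bars are list medians, dotted lines mark 0.3 in either direction, and a gene held by more than 1 list is drawn in each. Frzb lies at -1.20 and -1.15, and Celsr1 at 0.85 and 0.98.

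Markers of cell types also differed beside these members, and their part in the differences was not tested. Of 7 markers of cortical projection neurons, 5 were higher in the affected than in the control group by the threshold and 6 in the affected than in the unaffected group, against 10.3% and 18.4% of all loci, and their summed FPKM was 746 in control samples, 656 in unaffected and 843 in affected samples. Of 8 markers of cortical progenitors, 4 were higher between affected and control, against 10.3% of all loci, and 1 higher and 1 lower between affected and unaffected, against 18.4% and 19.4%, with a summed FPKM of 433, 454 and 525. Of 8 markers of meninges and fibroblasts, 0 were higher and 2 lower between affected and control, against 10.3% and 11.0% of all loci. Between affected and unaffected 0 were higher and 3 lower, against 18.4% and 19.4%. Their summed FPKM was 98.4, 90.9 and 86.9 in control, unaffected and affected samples. Of the choroid plexus markers 6 of 8 met the mean FPKM of 1, and 1 was higher in each comparison, against 2.70%, 10.3% and 18.4% of all loci, with a summed FPKM of 998, 1323 and 1111 in the same order of groups. Ttr made up most of this sum, and Clic6, another of these markers, had 4.48, 5.36 and 8.31 FPKM.

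The endothelial markers had 3 of 7 genes higher between affected and control, against 10.3% of all loci, and 4 between affected and unaffected, against 18.4%. Their median difference of 0.28 between affected and control became 0.22 with the length trend subtracted. Their summed FPKM was 70.9, 71.3 and 75.05 in control, unaffected and affected samples. The 5 microglial markers summed to 31.4, 31.1 and 26.9 and the 8 markers of the ventral telencephalon to 180, 212 and 194. Of the microglial markers 2 were lower in either affected comparison, against 11.0% and 19.4%. A microglial marker was higher between unaffected and control and between affected and unaffected (1 each), against 2.70% and 18.4%. Of the ventral markers 3 were higher between unaffected and control and 2 between affected and control, against 2.70% and 10.3%. Between affected and unaffected 1 ventral marker was lower, against 19.4%. Of the 5 markers of the cortical hem and hippocampal primordium, which include the members Wnt3a and Wnt2b, 2 met the mean FPKM of 1 and both, Prox1 and Zbtb20, were higher in the affected than in the control group, by 0.37 and 0.50, against 10.3% of all loci. Their median difference of 0.43 became 0.19 with the length trend subtracted. The 5 thalamic markers summed to 11.9, 9.83 and 10.6.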

How the data were processed

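Group FPKM came from the authors' deposited table, in which each locus has 1 value for each of 3 groups of 3 fetuses, estimated with the Cufflinks suite (Cufflinks and Cuffdiff per the submitters' processing notes) on mm10. The processing notes name Bowtie2 2.2.4.0, while the methods name STAR and also Bowtie with TopHat, and which alignment gave the table was not given in the sources used here. Such estimates assign fragments to isoforms and divide by exon length, so low genes and genes with several isoforms are less certain. The number of columns of single animals was 0, so no error between animals and no depth per library was computed, and no test was run. The table also holds the authors' fold changes, test statistics, p-values and q-values for each pair of groups, and none of these was used.

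Loci without a gene name (3871) or with a name turned into a date (28) were left out of the background, and 351 joined loci were kept. Differences were computed in Python 3.11.15 with pandas 2.3.3 as log2(FPKM + 0.1) between groups, for loci with a mean FPKM of at least 1. The length trend was a running median over 501 loci ordered by the longest coding transcript of GENCODE M21. Where none was coding, the longest transcript of any kind was used. A length was found for 11701 of 12642 loci (92.6%). The procedure was tested on simulated data only with shifts larger than those of the members, so that test does not bear on shifts of their size. One list gene, Adgra2, was matched by an older symbol from RefSeq. Promoter windows came from RefSeq, and 17 of the 45 members were not matched there. All members at a mean FPKM of at least 1 were named with their values, with the 5 largest differences in each comparison and the 3 highest levels in each role in detail, besides Wnt5b and Axin2. Of the other pathway lists, the 3 largest rises and the 3 largest falls between affected and control were named. Gbx2, Lhx9, Rora, Lef1, Clic6, Prox1 and Zbtb20 were named after their values were seen. Members, lists and thresholds were chosen with earlier results of these data known. The alternatives were other filters, thresholds, pseudocounts and scalings, centring, the length trend, and leaving out joined loci; the median transcript length and a background of coding genes were added after seeing the data.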

Additional observations from a re-analysis of the deposited data

How the results depend on the processing

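No paired analysis was possible because the table holds no values of single animals, and for the same reason no replicate could be left out. Scaling each group to an equal total FPKM moved the median of all loci by -0.33 between unaffected and control and by 0.30 between affected and unaffected. The members' medians then became -0.29 and 0.41 in these comparisons, with 0 members higher and 10 lower in the first, against 0.688% and 55.5% of all loci, and 19 higher and 1 lower in the second, against 49.4% and 3.10%, so the directions against the unaffected group hold relative to that shift. Without a filter on low values, 4 members were higher and 1 lower between unaffected and control, against 4.79% and 4.39% of all loci, and 11 higher and 3 lower between affected and control, against 9.26% and 10.4%. At a threshold of 0.5, 1 member was higher between unaffected and control, 1 between affected and control and 2 between affected and unaffected, against 0.925%, 1.38% and 6.26% of all loci. In the same order 0, 1 and 2 members were lower, against 0.680%, 3.03% and 6.24%. A pseudocount of 1 left 1 member higher between unaffected and control and 4 between affected and control, against 1.67% and 7.06% of all loci, and Lrp5 at 0.27 and Rspo1 at 0.23 were no longer past the threshold in the second. An equal total FPKM also took Lrp5 to 0.29 there. With the length trend subtracted, the median between affected and control was 0.064, 1 member was higher between unaffected and control and 3 between affected and unaffected, against 1.87% and 10.3% of all loci, and Fzd3 turned from 0.32 to -0.11 between affected and unaffected. With the median transcript length in its place, which was chosen after seeing the data, the median between affected and unaffected was -0.013 and Fzd3 lay at -0.012. The cause of these changes was not tested. Centring, an equal upper quartile, a pseudocount of 0.01, a filter of 0.3, leaving out joined loci and a background of coding genes moved no count of members by over 1.5 times.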
